A study of Mus musculus with 16 samples.

Results

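Otud1, Ddit4l, 6430571L13Rik and Nrep are 4 genes of the quadriceps transcriptome that moved after a single bout of maximal exercise and whose place in the exercise response of muscle is little described. They were picked by name for their rise or fall after exercise in these same libraries, so the changes with exercise below are given as values without a test. All 4 symbols occurred once among the 23970 symbols of the expression table, and all 4 were among the 11256 genes tested, whose mean over the libraries was at least 0.5 FPKM (fragments of a transcript, divided by its length and by the size of the library). RNA was sequenced from quadriceps of male wild-type C57BL/6NTac mice, 16 weeks old, in 4 groups of 4 mice that differed in diet and exercise. CON-pre and HFD-pre mice received a control or a high-fat diet and were sampled without the maximal exercise. By the paper's methods, all groups were first acclimatised to the treadmill and fasted. CON-post and HFD-post mice received the same diets and were sampled 3 h after maximal treadmill running. Each library came from another mouse, so no mouse was measured before and after exercise.

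OTUD1 belongs to the ovarian tumour (OTU) domain proteases, which remove ubiquitin chains from other proteins and so change how long those proteins last or how they signal. DDIT4L, also called REDD2, is a relative of the stress protein REDD1 (gene Ddit4), and both restrain mTORC1, the kinase complex that drives protein synthesis when nutrients, insulin and contraction permit. NREP, also called P311, is a small intracellular protein first described in neurons, which has been tied to TGF-beta production and to myofibroblasts in healing tissue. 6430571L13Rik still carries the name of the cDNA clone it was found with, and RefSeq lists it as protein-coding.

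Otud1 lies on chromosome 2 from base 19657731 to 19661279 on the plus strand, Ddit4l on chromosome 3 from 137623672 to 137628332 on the plus strand, and 6430571L13Rik on chromosome 9 from 107340640 to 107349683 on the plus strand (RefSeq, build GRCm38.p6). In the GENCODE M1 annotation, which is on build mm9, Otud1 has 1 exon. Of the 4 genes 3 matched the RefSeq promoter sequences used here, and the 250 bases before their annotated starts are shown. Where the measured transcripts begin is not known from FPKM. Capitals mark every match, on either strand, to 10 motifs: CRE (TGACGTCA), CRE half-site (TGACG), AP-1 site (TGANTCA), NR4A site (AAAGGTCA), FoxO site (GTAAACA), E-box (CACGTG), heat shock element (GAANNTTC), CCAAT box (CCAAT), GC box (GGGCGG) and TATA box (TATAAA). The windows are chr2:19657481-19657730 for Otud1, chr3:137623422-137623671 for Ddit4l and chr9:107340390-107340639 for 6430571L13Rik, of which the first 48 bases belong to the neighbouring gene Hemk1 and are not printed.
Otud1: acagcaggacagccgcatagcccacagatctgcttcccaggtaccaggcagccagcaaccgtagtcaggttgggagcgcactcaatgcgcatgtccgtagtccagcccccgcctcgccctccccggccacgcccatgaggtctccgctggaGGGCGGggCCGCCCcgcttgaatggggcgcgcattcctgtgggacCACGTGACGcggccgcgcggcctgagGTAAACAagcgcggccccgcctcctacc
Ddit4l: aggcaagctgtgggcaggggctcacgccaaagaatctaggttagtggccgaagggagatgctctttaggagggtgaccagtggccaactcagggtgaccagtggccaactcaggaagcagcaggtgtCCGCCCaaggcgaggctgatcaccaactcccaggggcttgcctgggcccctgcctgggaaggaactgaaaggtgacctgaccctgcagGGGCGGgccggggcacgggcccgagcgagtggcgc
6430571L13Rik: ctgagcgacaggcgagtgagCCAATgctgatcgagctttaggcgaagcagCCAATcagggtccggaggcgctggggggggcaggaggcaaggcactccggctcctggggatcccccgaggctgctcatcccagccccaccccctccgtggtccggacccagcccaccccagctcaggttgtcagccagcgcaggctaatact

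The Otud1 window held 1 E-box from base -54 to -49 before the start and 1 CRE half-site from -50 to -46, which overlap, and 1 FoxO site from -28 to -22. It also held 2 GC boxes, from -99 to -94 and from -91 to -86. An E-box of these letters was present in 6.02% of 32851 windows of the same length (27025 genes), a CRE half-site in 17.8%, a FoxO site in 3.17% and a GC box in 32.7%. The Ddit4l window held 2 GC boxes, from -123 to -118 and from -35 to -30. The 6430571L13Rik window held 2 CCAAT boxes, from -182 to -178 and from -152 to -148, a motif found in 33.8% of windows. None of the 3 windows held the full CRE (1.55% of windows), the AP-1 site (6.75%), the NR4A site (1.34%), the heat shock element (6.69%) or the TATA box (12.4%) in these letters. The G and C content was 69.2% for Otud1 and 65.2% for both Ddit4l and 6430571L13Rik, against a median of 52.4% over all windows. These matches describe letters only and say nothing of what binds there.

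The FPKM of a library summed to 283806 to 329538. The relative depth, read from the ratio of low values to those of CON-pre replicate 1, ranged from 0.697 to 1.13. All 8 muscle fibre markers (Ckm, Acta1, Ttn, Mb, Pygm, Actn3, Tnnt3 and Myh4) were present in every group, with a summed level of 47168 to 63007 FPKM. The read number of each library is unknown from FPKM, so no counting error is given, and the SD between mice is the error used. In bulk muscle a lower level can mean fewer cells of a type or less RNA per cell, and these cannot be told apart.

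Otud1 had the largest difference between pre and post of the 4 genes on the log2 scale, and was the only one at a higher level after exercise. Its level was 2.37, 5.59, 3.84 and 3.81 FPKM in the CON-pre libraries (replicates 1 to 4) and 4.59, 3.77, 4.35 and 7.30 FPKM in the HFD-pre libraries. After exercise the CON-post libraries held 41.5, 27.1, 45.3 and 19.1 FPKM and the HFD-post libraries 11.6, 30.4, 16.5 and 17.5 FPKM. Every post library lay above every pre library, since the lowest of the 8 post values was 11.6 FPKM and the highest of the 8 pre values was 7.30 FPKM. The group means were 3.90 ± 1.32 FPKM in CON-pre, 5.0 ± 1.57 in HFD-pre, 33.2 ± 12.3 in CON-post and 19.0 ± 8.04 in HFD-post (SD, n = 4). Within CON-pre and each of the post groups the highest library was more than 2 times the lowest. The coefficient of variation was 33.8% in CON-pre, 31.4% in HFD-pre, 37.0% in CON-post and 42.3% in HFD-post.

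Mean Otud1 was 8.51-fold higher in CON-post than in CON-pre and 3.80-fold higher in HFD-post than in HFD-pre. In the fit of all groups on log2(FPKM + 0.5), a scale that understates changes of low genes, the difference was 2.91 (SE 0.31) on CON and 1.78 (SE 0.31) on HFD. The response on HFD was smaller by 1.13 on this log2 scale (HFD minus CON -1.13, SE 0.43, and -1.38 to -0.93 with 1 library left out). That difference is built from the contrasts the gene was chosen by and was therefore not tested. On CON, Otud1 held rank 6 among the rises of all genes tested, between Nr4a3, an orphan nuclear receptor induced by contraction (log2 difference 3.03), and Hspa1b, an inducible heat shock protein (2.79). On HFD it held rank 12, between Hspa1b (1.90) and Hspa1a (1.73). Hspa1a and Hspa1b are near-identical copies whose reads the authors' counting could have split, so their own values are uncertain.

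**Figure D1:**
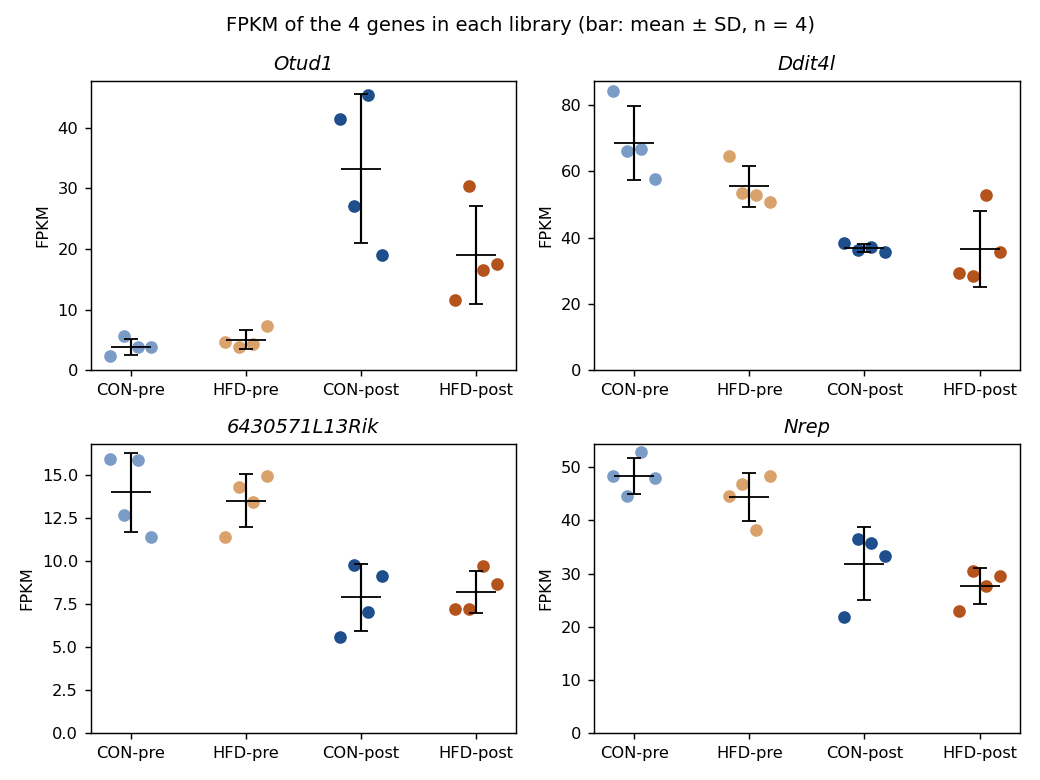
FPKM of Otud1, Ddit4l, 6430571L13Rik and Nrep in each of the 16 libraries, 1 panel a gene, with the 4 groups along the horizontal axis and bars for the mean ± SD (n = 4). For Otud1 the 8 post libraries (11.6 to 45.3 FPKM) lie above the 8 pre libraries (2.37 to 7.30 FPKM), for 6430571L13Rik and Nrep they lie below, and for Ddit4l 1 HFD-post library at 52.9 FPKM lies within the pre range.

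Ddit4l was the most abundant of the 4 genes and was at a lower level after exercise on both diets. It was at 84.3, 66.0, 66.7 and 57.6 FPKM in CON-pre (replicates 1 to 4) and at 64.8, 53.5, 52.7 and 50.8 FPKM in HFD-pre. After exercise its level was 38.4, 36.4, 37.3 and 35.6 FPKM in CON-post and at 29.2, 28.4, 52.9 and 35.7 FPKM in HFD-post. All CON-post libraries lay below all pre libraries, while replicate 3 of HFD-post lay inside the pre range of 50.8 to 84.3 FPKM and the other 3 below it. The group means were 68.7 ± 11.2 FPKM in CON-pre, 55.4 ± 6.31 in HFD-pre, 36.9 ± 1.19 in CON-post and 36.5 ± 11.4 in HFD-post (SD, n = 4).

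The coefficient of variation of Ddit4l was 3.23% for CON-post, against 31.1% for HFD-post, where it was 12.8% around a mean of 31.1 FPKM without replicate 3. Mean Ddit4l differed by -46.2% on CON and by -34.1% on HFD, with log2 differences of -0.87 (SE 0.16) and -0.63 (SE 0.16), and the responses differed by 0.24 (SE 0.22). Without replicate 3 of HFD-post the log2 difference on HFD was -0.83 and the responses differed by 0.047. Its rank among the falls of all genes tested was 54 on both diets.

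6430571L13Rik had the lowest mean of the 4 genes over all 16 libraries, although Otud1 was lower in both pre groups. It was at 16.0, 12.7, 15.9 and 11.4 FPKM in CON-pre (replicates 1 to 4) and at 11.4, 14.3, 13.4 and 14.9 FPKM in HFD-pre. After exercise it was at 5.57, 9.79, 7.04 and 9.13 FPKM in CON-post and at 7.19, 7.18, 9.68 and 8.64 FPKM in HFD-post. The highest post library (9.79 FPKM) was below the lowest pre library (11.4 FPKM), and within pre or post the diets lay in the same range. The group means were 14.0 ± 2.30 FPKM in CON-pre, 13.5 ± 1.54 in HFD-pre, 7.88 ± 1.94 in CON-post and 8.18 ± 1.22 in HFD-post (SD, n = 4). The mean differed by -43.6% on CON and by -39.5% on HFD, with log2 differences of -0.81 (SE 0.16) and -0.70 (SE 0.16). The responses differed by 0.11 (SE 0.22), from -0.035 without CON-post replicate 1 to 0.22 without CON-post replicate 2. The gene ranked 60 and 42 among the falls on CON and HFD.

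Nrep was also lower after exercise, with the smallest log2 difference of the 4 on CON. It was at 48.3, 44.6, 52.9 and 47.9 FPKM in CON-pre (replicates 1 to 4) and at 44.5, 46.8, 38.1 and 48.4 FPKM in HFD-pre. After exercise it was at 21.8, 36.5, 35.7 and 33.3 FPKM in CON-post and at 23.0, 30.6, 27.6 and 29.6 FPKM in HFD-post. The post libraries ended at 36.5 FPKM and the pre libraries began at 38.1 FPKM, so the separation was complete but narrow, and replicate 1 was the lowest library in both post groups. The group means were 48.4 ± 3.41 FPKM in CON-pre, 44.5 ± 4.51 in HFD-pre, 31.8 ± 6.84 in CON-post and 27.7 ± 3.37 in HFD-post (SD, n = 4). The mean differed by -34.2% on CON and by -37.7% on HFD, with log2 differences of -0.62 (SE 0.14) and -0.68 (SE 0.14) and a difference between the responses of -0.05 (SE 0.20). That difference ran from -0.22 without CON-post replicate 1 to 0.033 without HFD-post replicate 1. Nrep ranked 89 among the falls on CON and 47 on HFD.

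The background of these changes was uneven. With limma and Benjamini-Hochberg adjustment, 125 of the 11256 genes tested (1.11%) were called differentially expressed genes (DEG, adjusted p under 0.05) with exercise on CON, 109 up-regulated and 16 down-regulated, and 61 (0.542%) with exercise on HFD, 55 up-regulated and 6 down-regulated. At an unadjusted limma p under 0.05 were 1253 genes on CON (11.1%) and 1320 on HFD (11.7%). The groups did not overlap at all for 655 genes on CON (5.82%) and for 767 genes on HFD (6.81%). The 4 genes did not overlap on CON, and all but Ddit4l did not overlap on HFD, but since they were chosen by these contrasts nothing is read from those counts. All 4 genes were above the middle of the range of levels. Over the 16 libraries the mean was 49.4 FPKM for Ddit4l, 38.1 for Nrep, 15.3 for Otud1 and 10.9 for 6430571L13Rik, at the 93.8, 91.7, 80 and 73.2 percentile of the genes tested. The spread within groups was at the 96.9 percentile for Otud1 (SD 0.49 on the log2 scale) and at the 76.2, 75.9 and 66.4 percentile for Ddit4l, 6430571L13Rik and Nrep (SD 0.25, 0.25 and 0.21).

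Most summed levels of markers of other cells overlapped between pre and post. The summed level of 6 fibroblast markers was 314 to 524 FPKM over all libraries, overlapped in every contrast and differed by 0.04 (CON) and -0.03 (HFD) as a log2 ratio of means between post and pre. The sum of 6 smooth muscle and pericyte markers did not overlap with exercise on CON (78.4 to 86.4 FPKM in CON-pre, 89.1 to 109.0 in CON-post, log2 ratio 0.20) and overlapped on HFD (0.13). It was higher after exercise, as was Otud1, while Nrep, Ddit4l and 6430571L13Rik were lower. Its part in the values of the 4 genes was not tested. The muscle fibre sum overlapped between pre and post on both diets, with log2 ratios of -0.12 on CON and -0.05 on HFD. The sums for adipocyte, endothelium, macrophage, Schwann cell, satellite cell and tendon markers also overlapped between pre and post on both diets, the largest log2 ratios being 0.60 for adipocyte on HFD and 0.26 for Schwann cell on CON. No marker was at 0 throughout a group.

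The effect of diet averaged over pre and post could be tested for the 4 genes. In this balanced design it is independent of the exercise contrasts. Diet effects of opposite sign in pre and post cancel in it, and the Otud1 differences were 0.33 at rest and -0.80 after exercise. None of the 4 genes was called, on a background of 108 of 11256 genes called (0.959%). Otud1 differed by -0.23 (HFD minus CON, log2, SE 0.22, 95% interval -0.69 to 0.23, limma adjusted p = 0.782). Ddit4l differed by -0.18 (SE 0.11, interval -0.42 to 0.06, adjusted p = 0.627), 6430571L13Rik by 0.014 (SE 0.11, interval -0.22 to 0.25, adjusted p = 0.982) and Nrep by -0.15 (SE 0.098, interval -0.36 to 0.06, adjusted p = 0.645). Single libraries moved these values. Leaving out 1 at a time, Otud1 ran from -0.36 (without HFD-post replicate 2) to -0.13 (without HFD-post replicate 1), Ddit4l reached -0.28 without HFD-post replicate 3 (limma adjusted p = 0.158) and Nrep reached -0.24 without CON-post replicate 1 (adjusted p = 0.145). Exact two-sided permutation tests of the diet labels within pre and within post, which could reach 0.000408, gave p = 0.422, 0.177, 0.900 and 0.170 in the same order.

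Within pre and within post, the diet contrasts use the same libraries as the contrasts that chose the genes, so for the 4 genes they are given as values without a test. Over all genes, diet at rest was called for 39 genes (0.346%) and the groups did not overlap for 633 (5.62%). The groups overlapped for each of the 4 genes, from which nothing is read. Ddit4l had a mean of 55.4 FPKM in HFD-pre against 68.7 FPKM in CON-pre and a log2 difference of -0.30 (SE 0.16), or -0.20 without CON-pre replicate 1. Beside this value, the muscle fibre sum was lower in HFD-pre (50923 to 56405 FPKM) than in CON-pre (59124 to 63007), without overlap and with a log2 ratio of means of -0.18. The adipocyte sum was likewise lower in HFD-pre (63.6 to 76.6 against 123 to 197 FPKM, log2 ratio -1.05). The part of either in the Ddit4l value was not tested. At rest Otud1 differed by 0.33 (SE 0.31), 6430571L13Rik by -0.04 (SE 0.16) and Nrep by -0.12 (SE 0.14) on the log2 scale. Without CON-pre replicate 1 the Otud1 value was 0.14, without CON-pre replicate 2 it was 0.50, and without HFD-pre replicate 3 the Nrep value was -0.054.

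After exercise, diet was called for 17 genes (0.151%) and the groups did not overlap for 356 (3.16%), while those of the 4 genes overlapped. Otud1 was at 33.2 FPKM in CON-post and 19.0 FPKM in HFD-post, a log2 difference of -0.80 (SE 0.31). Replicate 2 of HFD-post, at 30.4 FPKM, exceeded replicates 2 and 4 of CON-post. Without that library the log2 difference was -1.05, and without replicate 1 of HFD-post it was -0.60. Nrep differed by -0.18 (SE 0.14), with -0.35 without CON-post replicate 1 and -0.092 without HFD-post replicate 1. 6430571L13Rik differed by 0.07 (SE 0.16) and Ddit4l by -0.06 (SE 0.16), which was -0.25 without HFD-post replicate 3.

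**Figure D2:**
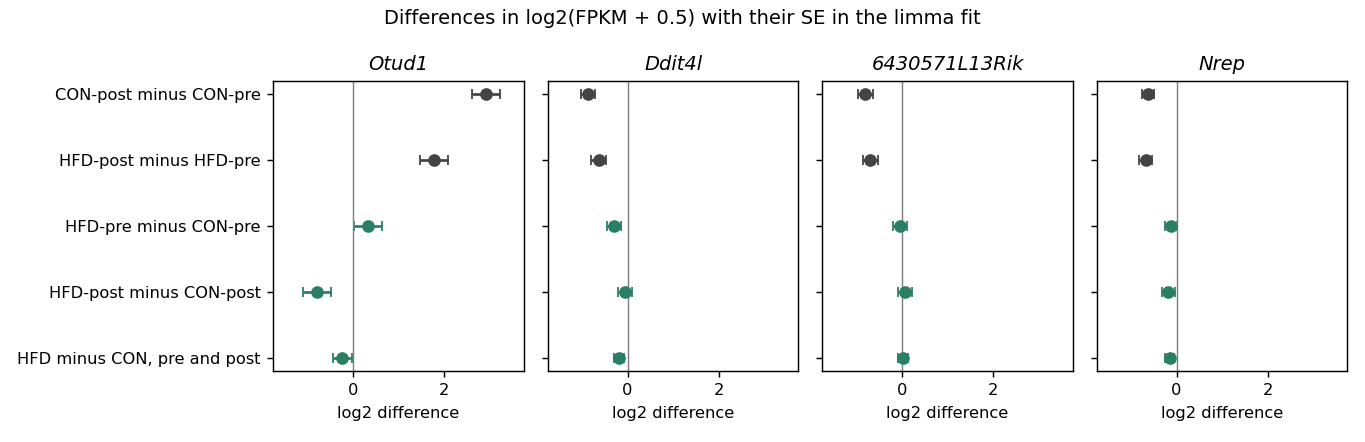
Differences between groups in log2(FPKM + 0.5) for each of the 4 genes (horizontal axis), with bars of 1 SE from the limma fit and 1 row a contrast. The exercise contrasts (grey) chose the genes and run from -0.87 for Ddit4l to 2.91 for Otud1, and the diet contrasts (green) run from -0.80 to 0.33, both of them for Otud1.

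The OTU family has 14 other members in the expression data, of which 12 were tested. With limma none was called with diet or exercise at an adjusted p under 0.05, while 1 had an unadjusted p under 0.05 with exercise on CON and 0 on HFD. The shares over all genes tested were 1.11% and 0.542% called and 11.1% and 11.7% unadjusted, on CON and HFD, so that few or none of 12 genes is also what the background gives. Their median log2 difference was -0.037 on CON and -0.013 on HFD, beside medians of -0.0058 and 0.035 over all genes tested. Otulin, which cuts linear ubiquitin chains, was at 5.86 ± 1.10 FPKM in CON-pre (4.90 to 7.41) and 9.25 ± 0.74 FPKM in CON-post (8.21 to 9.88). These ranges did not overlap, with a log2 difference of 0.63 (limma adjusted p = 0.129, called in 1 of 27 alternatives at 0.0102, without replicate 2 of HFD-pre, and up to 0.337 in the others). On HFD the difference was 0.38 (adjusted p = 0.428), with HFD-pre replicates 1 to 4 at 7.27, 3.85, 8.03 and 8.17 FPKM. Zranb1, which prefers the less common ubiquitin linkages, differed by 0.19 on both diets (adjusted p = 0.460 on CON and 0.436 on HFD).

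Around Ddit4l, the mTORC1 pathway was represented by 28 other genes, from sestrins and the TSC complex to the kinase complex and its substrates, all tested. None was called with diet. With exercise, 1 of 28 was called higher on HFD (background 0.542%) and none on CON (1.11%). At an unadjusted limma p under 0.05 were 5 of 28 on each diet, against 11.1% of all genes on CON and 11.7% on HFD. The medians of their log2 differences were 0.0043 on CON and -0.00070 on HFD. The called gene was Eif4ebp1, which encodes the translation repressor 4E-BP1, a substrate that mTORC1 switches off. It was at 18.7 ± 2.93 FPKM in HFD-pre (15.8 to 22.7) and 35.7 ± 4.06 FPKM in HFD-post (32.0 to 41.4), a log2 difference of 0.92 (SE 0.16, limma adjusted p = 0.0133). The call was kept in 23 of 27 alternatives, with an adjusted p up to 0.0598 without replicate 2 of HFD-pre. On CON it differed by 0.58 (24.9 ± 6.81 and 36.9 ± 5.93 FPKM, adjusted p = 0.109, called in 1 of 27 alternatives at 0.00716, without CON-pre replicate 4, and up to 0.308 in the others). The difference between the diets was not tested.

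Ddit4, the paralog of Ddit4l, lay on the other side of 0. It was at 3.69 ± 2.17 FPKM in CON-pre (1.57 to 6.46), 5.93 ± 3.14 in HFD-pre (3.06 to 9.19), 11.7 ± 11.6 in CON-post (2.94 to 28.0) and 8.62 ± 3.88 in HFD-post (5.23 to 13.8). The ranges overlapped on both diets, with log2 differences of 1.18 on CON (SE 0.57, limma adjusted p = 0.466) and 0.55 on HFD (SE 0.57, adjusted p = 0.763). Per length, Ddit4l was thus the more abundant of the pair in every group, by mean FPKM. Sesn1, a stress-induced brake on mTORC1, was at 9.11 ± 1.69 FPKM in CON-pre and 12.8 ± 2.42 in CON-post, a log2 difference of 0.46 (adjusted p = 0.183), and differed by 0.34 on HFD (adjusted p = 0.374).

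**Figure D3:**
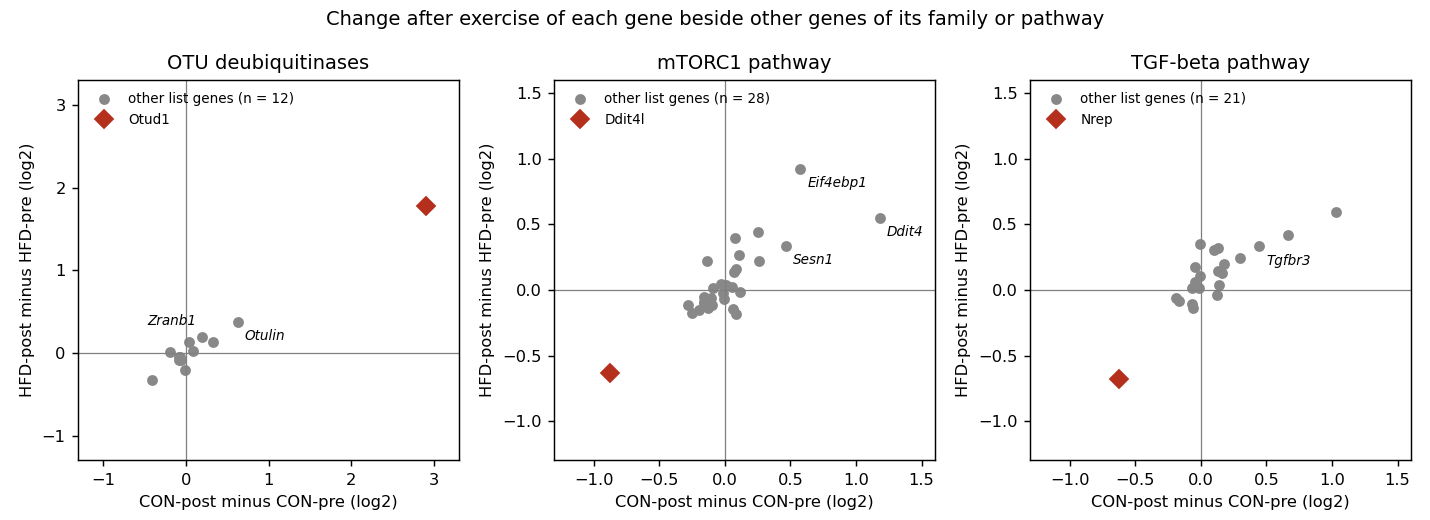
Log2 difference after exercise on CON (horizontal axis) and on HFD (vertical axis) for the other genes of the OTU family (n = 12), the mTORC1 pathway (n = 28) and the TGF-beta pathway (n = 21), with Otud1, Ddit4l and Nrep as diamonds. Otud1 lies at 2.91 and 1.78, Ddit4l at -0.87 and -0.63 opposite Ddit4 (1.18 and 0.55) and Eif4ebp1 (0.58 and 0.92), and Nrep at -0.62 and -0.68 opposite Tgfbr3 (0.45 and 0.33).

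For Nrep the TGF-beta pathway gave 22 other genes, of which 21 were tested and none was called with diet. With exercise on CON 1 of 21 was called higher (background 1.11%) and on HFD none (0.542%). At an unadjusted limma p under 0.05 were 5 of 21 on CON and 6 of 21 on HFD, against 11.1% and 11.7% of all genes. Their median log2 difference was 0.10 on CON and 0.13 on HFD, beside -0.0058 and 0.035 over all genes tested. The called gene was Tgfbr3, the co-receptor betaglycan, which presents TGF-beta to the signalling receptors. It was at 6.05 ± 0.43 FPKM in CON-pre (5.57 to 6.62) and 8.43 ± 0.59 in CON-post (7.58 to 8.85), a log2 difference of 0.45 (SE 0.080, limma adjusted p = 0.00741), called in 26 of 27 alternatives and at an adjusted p of 0.0597 in the fit of only the groups compared. On HFD its ranges did not overlap either (5.97 to 7.17 and 7.64 to 9.10 FPKM), with a difference of 0.33 (adjusted p = 0.0938).

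Next to 6430571L13Rik lie Hemk1, a methyltransferase gene on the opposite strand whose nearest end is 202 bases before it, and Cish, an inhibitor of cytokine signalling through STAT5 that lies 37855 bases before it. Of the 3 nearest genes on either side 4 were in the table and 3 were tested, and none was called with exercise or diet, while 1 of 3 had an unadjusted limma p under 0.05 with exercise on each diet (11.1% of all genes on CON and 11.7% on HFD, with 1.11% and 0.542% called). Hemk1 was at 2.76 ± 0.35 FPKM in CON-pre and 2.35 ± 0.33 in CON-post, a log2 difference of -0.19 (adjusted p = 0.711), and differed by 0.02 on HFD (adjusted p = 0.976). Cish was at 6.24 ± 4.30 FPKM in CON-pre (2.94 to 12.2) and 1.97 ± 0.38 in CON-post (1.52 to 2.42), and at 11.9 ± 4.29 in HFD-pre (7.08 to 16.6) and 4.22 ± 2.05 in HFD-post (1.71 to 6.40). These ranges did not overlap with exercise on either diet, but the adjusted p was 0.177 on CON (log2 difference -1.26) and 0.140 on HFD (-1.44). Averaged over pre and post, Cish was 0.92 higher on HFD on the log2 scale (limma adjusted p = 0.174). This was called in 1 of 26 alternatives (0.0471 without CON-pre replicate 3) and was up to 0.305 in the others.

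Genes that ran parallel to each of the 4 over the 16 libraries were ranked by Pearson r of log2(FPKM + 0.5). The r values mainly carry the split between pre and post, each library enters every r, and they are given as a description without p. Closest to Otud1 were Enah (r = 0.984), a regulator of actin filaments, Atf3 (0.974), a stress-induced transcription factor, Srxn1 (0.973), which repairs oxidised peroxiredoxins, Xirp1 (0.969), an actin-binding protein of muscle, and Klhl40 (0.955), which stabilises thin filament proteins. Since they were picked for following Otud1, their group means are no further support for its pattern. Atf3 was at 39.5 ± 14.9 FPKM in CON-post and 29.3 ± 12.8 FPKM in HFD-post, and Xirp1 at 146 ± 44.3 and 109 ± 37.2 FPKM. Once each group was centred on its mean, Enah (0.871) and Srxn1 (0.864) still led, followed by Tor3a (0.858).

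Closest to Ddit4l were Tmod4 (r = 0.881), which caps thin filaments, Klhl31 (0.879), Smyd1 (0.878), a methyltransferase of muscle, Casq1 (0.869), the calcium store protein of fast fibres, and Pgam2 (0.868), the muscle form of a glycolytic mutase. Casq1 was at 1417 ± 89.1 FPKM in CON-pre and 1129 ± 76.3 in CON-post. Closest to 6430571L13Rik were Kansl1l (0.933), Tppp (0.920), Prkag3 (0.911), the AMPK subunit of fast muscle, Lrrc38 (0.911) and Six4 (0.890), a transcription factor of muscle. Prkag3 was at 46.2 ± 4.48 FPKM in CON-pre and 28.9 ± 4.52 in CON-post, and at 45.8 ± 3.15 in HFD-pre and 31.8 ± 3.49 in HFD-post. Closest to Nrep were Pde4a (0.935), Rhobtb2 (0.902), Myoz3 (0.897), a protein of the Z-disc, Ky (0.889) and Plxnd1 (0.884).

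After centring, the leading genes were others for these 3. They were Xpnpep3 (0.817), Bcl6 (0.816) and Pcdhgb2 (0.815) for Ddit4l, and Gm561 (0.883), Socs2 (0.881) and Shisa2 (0.853) for 6430571L13Rik. For Nrep they were C1s1 (0.931), a complement protease, Sil1 (0.922) and H2-Ab1 (0.919), an antigen-presenting molecule of immune cells, none of which was among its 5 closest genes before centring. Between the 4 genes themselves the centred r ran from -0.431 (Otud1 and 6430571L13Rik) to 0.609 (6430571L13Rik and Nrep).

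**Figure D4:**
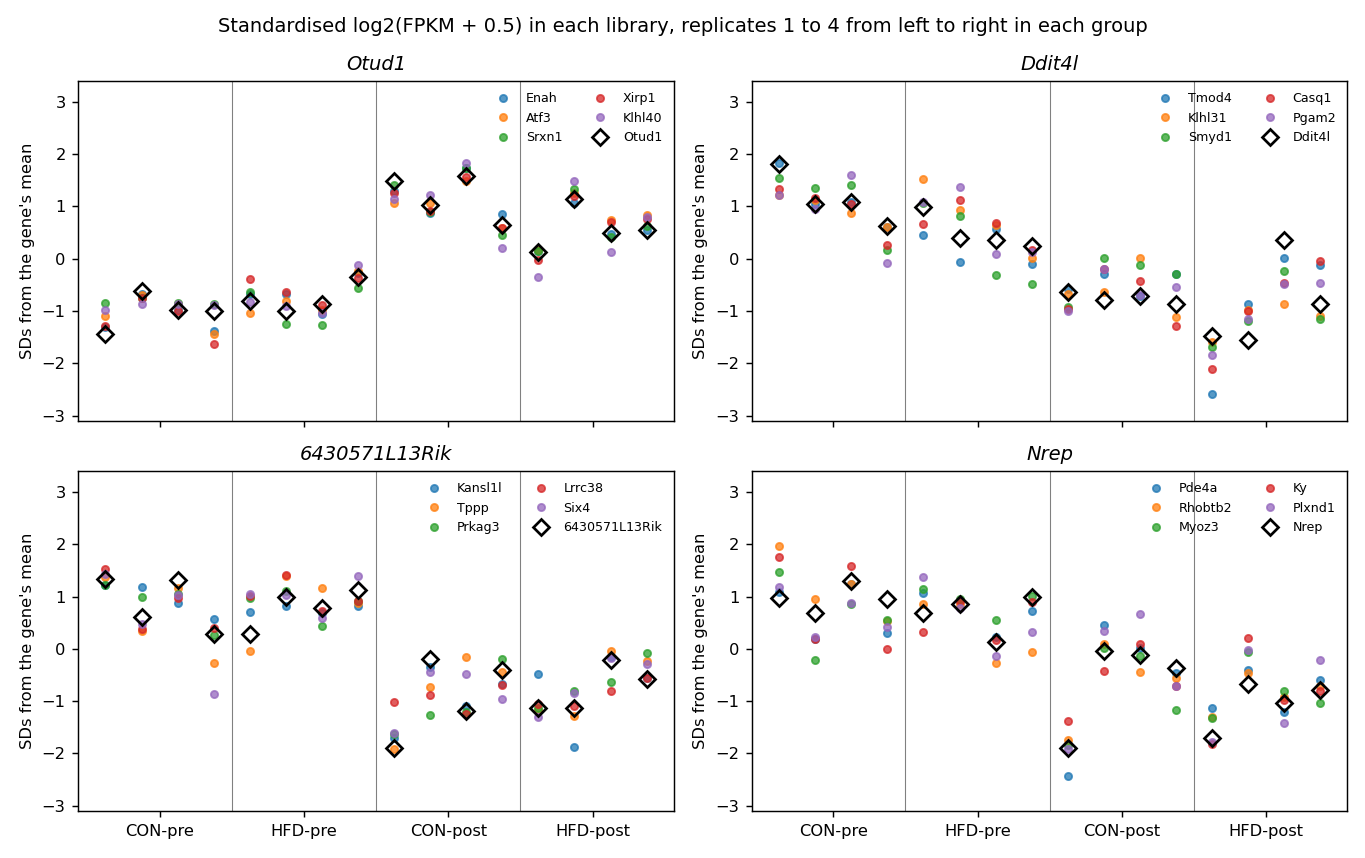
Log2(FPKM + 0.5) in each library, as the number of SDs from the mean of that gene over the 16 libraries (vertical axis), for each of the 4 genes (diamonds) and its 5 closest genes (circles), with replicates 1 to 4 from left to right in each group. The 5 genes beside Otud1 (r of 0.955 to 0.984) stay closer to it than those beside Ddit4l (0.868 to 0.881), where HFD-post replicate 3 stands above its companions.

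Some limits belong to single genes. Otud1 overlaps the non-coding gene Gm3230 in RefSeq, which was at 0 to 0.245 FPKM in these libraries, and Nrep overlaps Gm10549, at 0 to 0.103 FPKM. 6430571L13Rik overlaps the non-coding gene 4930429P21Rik at its end. The libraries were stranded, but whether the estimates used the strand is not given in the sources used here.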

How the data were processed

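RNA of quadriceps was sequenced by the authors from stranded poly(A) libraries, with TopHat and Cufflinks named in the submitters' processing notes, and the deposited values are FPKM per gene, already scaled for length and library size, so no count model was used. Replicates are separate mice. Of 24487 entries, 27 named by dates were left out (0.0771% of FPKM) and 260 repeated symbols were summed. All columns were used. Differences were tested with limma 3.58.1 (R 4.3.3) on log2(FPKM + 0.5), all 4 groups fitted together and the prior variance following the mean level, for the 11256 genes whose mean reached 0.5 FPKM, adjusted over all of them by Benjamini-Hochberg. The diet effect of the 4 genes averaged over pre and post was also tested by exact two-sided permutation (Python 3.11.15, scipy 1.17.1). The members and gene lists were chosen with earlier results of these data known. The genes named are the 4 genes, those called in each list (where fewer than 2 were called, also those with the smallest p with exercise on CON), Ddit4, and the 5 closest genes by r (3 after centring). The values of 1 list gene are not reported here. Rank neighbours were added. Positions and windows are from RefSeq GRCm38.p6. The notes name mm9, but the study's gene loci overlapped the GRCm38 gene for 692 of 692 genes compared and the mm9 gene (GENCODE M1) for 114. Simulated data held 200 of 11256 genes changed by 2 on the log2 scale, up or down. With exercise on CON 197 of them were called, with 7 unchanged genes. Smaller changes, such as the falls and the diet effects given above, were not simulated. Alternatives were pseudocounts of 0.1 and 1, no filter or a mean of 1 FPKM, 3 scalings, only the groups compared, no trend, array weights, a replicate block and leaving out each library.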

Additional observations from a re-analysis of the deposited data

Results flagged for a closer look

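Sesn1 was at 16.3 FPKM in replicate 1 of CON-post, while the other 3 libraries of that group lay between 11.2 and 12.1 FPKM. It was marked because its gap to the nearest library was large for the range of the group. It was the only such value among 52 groups of 4 libraries examined for the 4 genes and the list genes named, and chance marks about 1 group in 20.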

How the results depend on the processing

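Every exercise change of the 4 genes kept its direction under 27 alternatives. For Otud1 it ran from 2.72 to 3.14 on CON and from 1.53 to 1.98 on HFD. The genes were chosen by these changes, and most of the groups did not overlap. A kept direction was thus largely given in advance and is no support. The diet effect averaged over pre and post, with 26 alternatives, was not called for any of the 4. The diet effect of 6430571L13Rik, close to 0, changed sign: to -0.023 averaged with array weights (-0.059 to 0.068 leaving out 1 library), and to 0.00071 at rest with median-of-ratios scaling (-0.13 to 0.035 leaving out 1 library). After exercise, leaving out 1 library gave -0.076 (without CON-post 1) to 0.18 for 6430571L13Rik and -0.25 to 0.044 (without HFD-post 2) for Ddit4l, whose sign also turned without HFD-post 1.

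Counts of genes called over all genes moved more. With diet at rest 63 genes were called with array weights, and 21 to 43 leaving out 1 library (21 without CON-pre 1 or 2, 23 or 24 without HFD-pre 1, 3 or 4). With diet after exercise 2 were called in the fit of only the groups compared, and 5 to 16 leaving out 1 library (5 without CON-post 2, 8 without CON-post 3, 10 or 11 without CON-post 1, HFD-post 1 or HFD-post 4). With exercise on CON 72 were called with only the groups compared, and 88 to 190 leaving out 1 library (190 without CON-pre 4). With exercise on HFD 37 were called with no filter, where more genes are tested, and 21 to 79 leaving out 1 library (21 without HFD-pre 2 or HFD-post 2, 23 without HFD-post 3, 28 without HFD-pre 1, 36 without HFD-pre 3 or HFD-post 4). The cause was not tested. The call of Eif4ebp1 on HFD was lost without HFD-pre 1, HFD-pre 2, HFD-post 2 or HFD-post 3.

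Replicate numbers did not pair the libraries. Over 24 pairs of the same number the correlation of deviations from the group means was -0.22 to 0.213, over 0.1 in 5, and 6 of 16 libraries were closest to their own number. With the replicate block, 87 genes were called with diet averaged, 32 at rest, 17 after exercise, 116 with exercise on CON and 42 on HFD, and the averaged diet effect stayed uncalled for the 4 genes.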
